A study of Mus musculus with 48 samples.

Results

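Livers labelled SHP knockout that were taken at 6pm were compared between mice given ethanol and mice given the control. These are 6 of the 48 liver libraries of the series: replicates 0, 1 and 2 of the ethanol group and replicates 0, 1 and 2 of the control group, each from 1 mouse by the series' design text. All 6 mice carried the SHP knockout label. Further comparisons drew on the 6 wild-type livers of 6pm and on the 18 livers with the SHP label from the other 3 times. The diets and gavages given next were the same in those groups. Ethanol mice had a Lieber-DeCarli liquid diet with 5% ethanol over 10 days and were then gavaged at 9am on day 11 with 5 g of ethanol per kg of body weight. Control mice had the maltose diet and a gavage of 9 g/kg maltose dextrin, so the diet and the binge before sampling 9 hours later cannot be told apart in this contrast. Treatment was read from the sample titles, because the separate treatment tag named another treatment than the title in 24 of the 48 libraries. Age, sex and the design of the knockout allele were not stated for these mice. SHP, the small heterodimer partner encoded by Nr0b2, is an orphan nuclear receptor without a DNA-binding domain that represses other nuclear receptors, among them those that switch on bile acid synthesis.

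The liver clears ethanol through alcohol dehydrogenase and the cytochrome P450 Cyp2e1, and it answers foreign chemicals through the nuclear receptors CAR and PXR, whose textbook targets are cytochromes of the Cyp2b, Cyp2c and Cyp3a families. It makes fatty acids through enzymes such as the desaturase Scd1, secretes acute phase proteins in inflammation, and raises chaperones of the endoplasmic reticulum when proteins misfold there. Interferons, signals of viral or tissue danger, switch on a set of antiviral genes in nearly every cell, through promoter sequences called interferon-stimulated response elements.

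Expression was given as FPKM, reads per gene scaled to gene length and library size, and is printed here as scaled FPKM, after a further scaling of each library described with the processing. Because FPKM is per length, levels may be compared between genes. The 6 libraries held 12854337 to 19651790 reads in genes (9605636 to 19780144 over all 48). Hepatocyte markers stood at a mean log2 level of 10.29, 10.52 and 10.88 in the control livers and 10.82, 10.96 and 10.87 in the ethanol livers, so all 6 libraries carried the labelled tissue's leading transcripts. Nr0b2 (chromosome 4, 133553376 to 133556536, GRCm38), the targeted gene, was read in every library at 3.69, 10.7 and 13.2 scaled FPKM in the control livers and 16.2, 5.01 and 4.52 in the ethanol livers. The wild-type livers of 6pm had 6.56, 26.8 and 15.5 with control and 7.15, 5.95 and 8.29 with ethanol, a range that holds all 6 values but the 2 lowest of the ethanol group and the lowest of the control group. The ethanol and control livers overlapped, with a log2 difference of -0.16 (SE 0.51, adjusted p = 0.886) by limma. The knockout is therefore taken from the label alone, and whether the reads come from a part of the gene left by the targeting was not tested.

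One liver in each group stood apart before any comparison. Of 6513 genes with at least 5 scaled FPKM in 1 of the 6 livers, ethanol replicate 1 was more than 2-fold above both other ethanol livers in 383 and below both in 286, against 21 and 25 for ethanol replicate 0 and 45 and 27 for ethanol replicate 2. Control replicate 0 was above both other controls in 266 and below in 177, against 5 and 18 for replicate 1 and 29 and 11 for replicate 2. Ethanol replicate 1 correlated best with control replicate 0 (Pearson's r 0.961 across genes, which are not independent replicates) and with its own group at 0.946 and 0.940. Markers of immune cells were high in both livers. The 10 monocyte and antigen-presenting cell markers summed to 1028, 183 and 156 in the control livers and 126, 1050 and 97.7 in the ethanol livers, in scaled FPKM. For 14 Kupffer cell markers the sums were 1149, 411 and 503 in the control livers and 341, 1219 and 225 in the ethanol livers. For 9 neutrophil markers they were 46.8, 3.55 and 3.69 in the control livers and 8.35, 268 and 9.58 in the ethanol livers. In tissue RNA, more cells of a type and more RNA per cell cannot be told apart. Between any 2 of the 6 libraries the reads per gene differed beyond sampling noise, by a chi-square of 25.6 or more for each degree of freedom. The counts of the main gene lists are therefore also given from the 2 against 2 that remain without control replicate 0 and ethanol replicate 1, an alternative chosen after the data were seen, and each gene named as risen or fallen that lost its call there, or without any 1 of the 6 livers, is named in its paragraph.

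**Figure D1:**
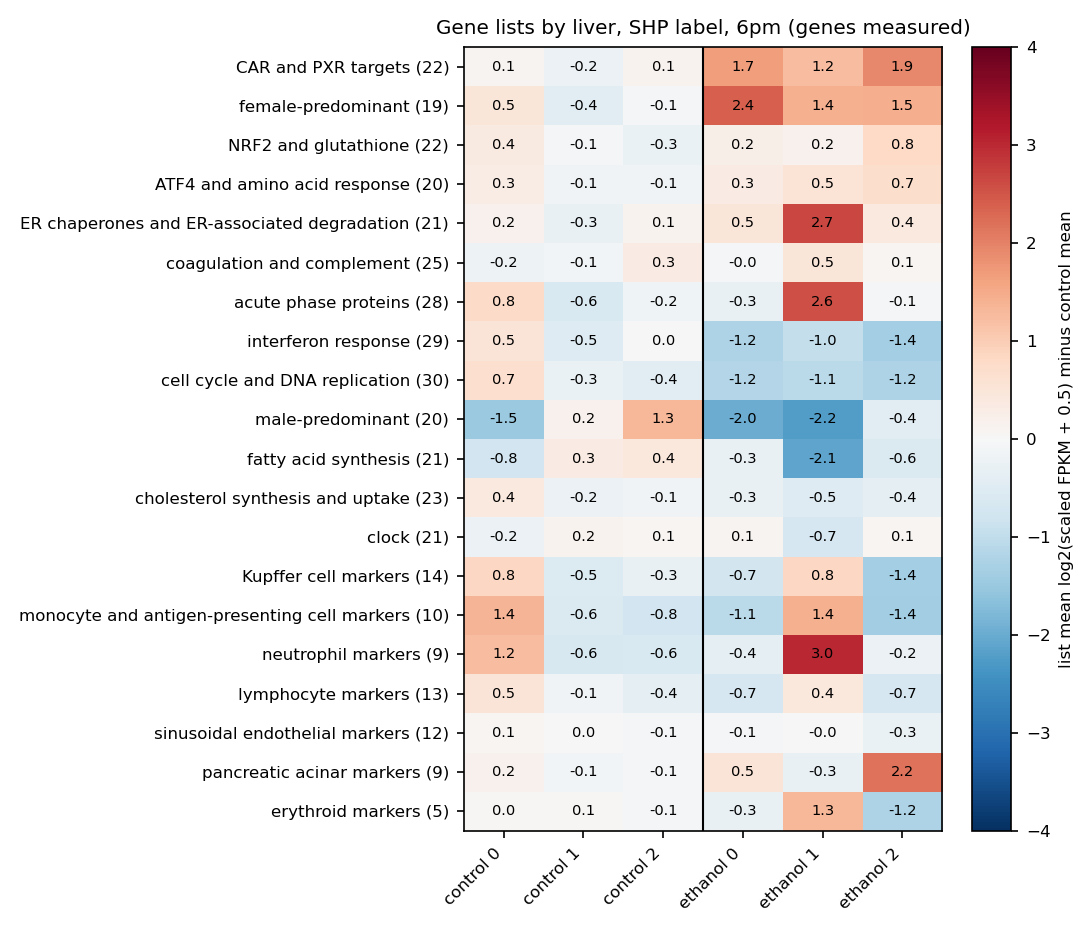
Mean log2(scaled FPKM + 0.5) of each gene list in each of the 6 livers, minus the mean of the 3 control livers; the number of measured genes is in parentheses, and red is above and blue below the controls. CAR and PXR targets lay 1.23 to 1.93 above the control mean in all 3 ethanol livers and interferon response genes at -1.37 to -0.96, while acute phase and ER chaperone lists were highest in ethanol replicate 1 (2.58 and 2.67).

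Across 13765 tested genes, limma with Benjamini-Hochberg adjustment called 974 (7.08%) at an adjusted p of 0.05: 458 (3.33%) were higher with ethanol and 516 (3.75%) lower, and 222 of the calls passed 2-fold. At an unadjusted p of 0.05, 3217 genes passed. The groups did not overlap, ethanol above control, in 1302 genes (9.46%) and, ethanol below control, in 1259 (9.15%). With library totals in place of the scale factors the split was 145 higher and 2039 lower, and the median log2 change of all genes moved from -0.006 to -0.221; directions below are relative to the scaled values. The spread was estimated over all 48 libraries. From the 6 libraries alone limma called 0 genes, with 1467 at an unadjusted p of 0.05. Without the 2 livers that stood apart it called 308 (2.24%), of which 268 were also called with all 6. In all 8 of these fits (the 6 livers, each of the 6 left out in turn, and the 2 left out together) the same 152 genes (1.10%) were called in the same direction, 74 higher (0.538%) and 78 lower (0.567%).

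Cytochromes of drug metabolism led the rises, with Cyp2b10 and Cyp2b9 in front. Of 22 measured targets of CAR and PXR, 11 rose with ethanol and 0 fell, where 3.33% of all genes rose. The median log2 difference of these targets was 1.50 against -0.006 over all genes. Of these genes 9 rose without the 2 livers that stood apart, and 6 were called higher in all 8 fits. With 1 liver left out there were 7 to 10 rises, 7 without control replicate 1. Cyp2b10 (chromosome 7, 25897620 to 25926624), the textbook CAR target, was at 0.974, 0.418 and 0.319 scaled FPKM in the control livers and 29.4, 51.9 and 137 in the ethanol livers. Every control liver was under 1 and every ethanol liver above 29, with ethanol replicate 2 the highest. The log2 difference was 5.86 (SE 0.78, adjusted p = 1.91e-05), and 6.21 (adjusted p = 0.000871) without the 2 livers. Its neighbour Cyp2b9 was at 4.7, 1.14 and 0.404 scaled FPKM in the control livers and 191, 53.4 and 52.8 in the ethanol livers, with ethanol replicate 0 highest and no overlap (log2 5.37, SE 1.09, adjusted p = 0.00222).

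Cyp2c29 was at 78.1, 84.3 and 156 scaled FPKM in the control livers and 662, 487 and 1279 in the ethanol livers, a log2 difference of 2.88 (SE 0.47, adjusted p = 0.000286). Cyp2c37 was at 30.8, 25.3 and 56 scaled FPKM in the control livers and 388, 245 and 188 in the ethanol livers (log2 2.87, SE 0.47, adjusted p = 0.00022). Neither overlapped between the groups, and the order of the ethanol livers differed: replicate 2 led for Cyp2c29 and replicate 0 for Cyp2c37. Cyp2a5, which oxidises coumarin and nicotine, was at 93.7, 39.5 and 62.7 scaled FPKM in the control livers and 243, 302 and 854 in the ethanol livers (log2 2.68, SE 0.54, adjusted p = 0.00207). Cyp2a22, another member of that family, was at 0.871, 0.265 and 0.151 scaled FPKM in the control livers and 5.15, 1.33 and 6.8 in the ethanol livers (log2 2.26, SE 0.47, adjusted p = 0.00243). Ethanol replicate 2 was highest for both of these, and no liver overlapped. Cyp2c50 (1.89), Cyp2c54 (2.17), Cyp2a4 (3.13), Cyp3a13 (1.10) and the efflux pump Abcc4 (1.93) rose too. Close relatives among these cytochromes may share reads, so how the rise divides between near-identical members is uncertain. Nr1i3, which encodes CAR, was itself at 83.4, 49.6 and 56 scaled FPKM in the control livers and 101, 88.8 and 134 in the ethanol livers (log2 0.78, SE 0.23, adjusted p = 0.0318). The stress gene Gadd45b, which CAR is known to induce, was at 2.27, 0.639 and 0.732 scaled FPKM in the control livers and 6.43, 3.59 and 7.31 in the ethanol livers (log2 1.94, SE 0.48, adjusted p = 0.011). The call was lost for Cyp2c54 and Gadd45b without control replicate 1; for Cyp2a4 without control replicate 1 or 2 or ethanol replicate 0; for Cyp3a13 without control replicate 0, 1 or 2 or ethanol replicate 1 or 2; for Abcc4 without ethanol replicate 2; for Nr1i3 without control replicate 1 or 2 or ethanol replicate 2. limma did not call Cyp2c54 (log2 2.15, adjusted p = 0.078) or Cyp3a13 (log2 0.89, adjusted p = 0.284) in the 2 against 2.

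Other enzymes and transporters joined the leading rises. Acnat2, which conjugates fatty acids to amino acids, was at 21.3, 7.17 and 8.6 scaled FPKM in the control livers and 37.5, 75.3 and 47.6 in the ethanol livers (log2 2.17, SE 0.49, adjusted p = 0.00511). The sulfotransferase Sult2a7 was at 21.9, 33.5 and 62.2 scaled FPKM in the control livers and 183, 132 and 200 in the ethanol livers (log2 2.22, SE 0.69, adjusted p = 0.0432). Slc34a2, a phosphate transporter, was under 1 in every control liver, at 0.0704, 0.22 and 0.791, and at 3.49, 2.29 and 9.69 with ethanol (log2 2.58, SE 0.40, adjusted p = 0.000117). Calls did not hold for Acnat2 without control replicate 1; for Sult2a7 without control replicate 0 or 1 or ethanol replicate 0, 1 or 2. Calls absent from the 2 against 2 included that for Sult2a7 (log2 2.05, adjusted p = 0.217).

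Cyp26a1 and Cyp26b1, which break down retinoic acid and are induced by it, rose. Cyp26a1 (chromosome 19, 37697798 to 37701536) was at 2.29, 5.06 and 7.27 scaled FPKM in the control livers and 49.8, 7.28 and 49.7 in the ethanol livers. Ethanol replicate 1 (7.28) stood beside the highest control (7.27) and the other ethanol livers far above. The log2 difference was 2.45 (SE 0.61, adjusted p = 0.0114) with all livers and 2.93 (adjusted p = 0.0107) without the 2 that stood apart. Cyp26b1 was at 0.715, 1.2 and 1.67 scaled FPKM in the control livers and 8.87, 5.25 and 9.23 in the ethanol livers (log2 2.29, SE 0.52, adjusted p = 0.0057). It had no overlap and was called in all 8 fits. The Cyp26a1 promoter is shown because it holds a direct repeat of the kind bound by retinoic acid receptors, searched as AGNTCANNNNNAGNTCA on both strands in the 250 bases before the start of each RefSeq gene (GRCm38.p6) and found in 0.211% of 27025 such stretches. The match is in capitals:
Cyp26a1 (chr19:37697736-37697807, plus strand): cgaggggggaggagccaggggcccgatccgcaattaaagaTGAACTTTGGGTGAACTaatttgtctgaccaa
A match of letters is a description and not a binding site; retinoic acid itself was not measured. When 1 liver was left out, calls were lost for Cyp26a1 without control replicate 0 or ethanol replicate 0 or 2.

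**Figure D2:**
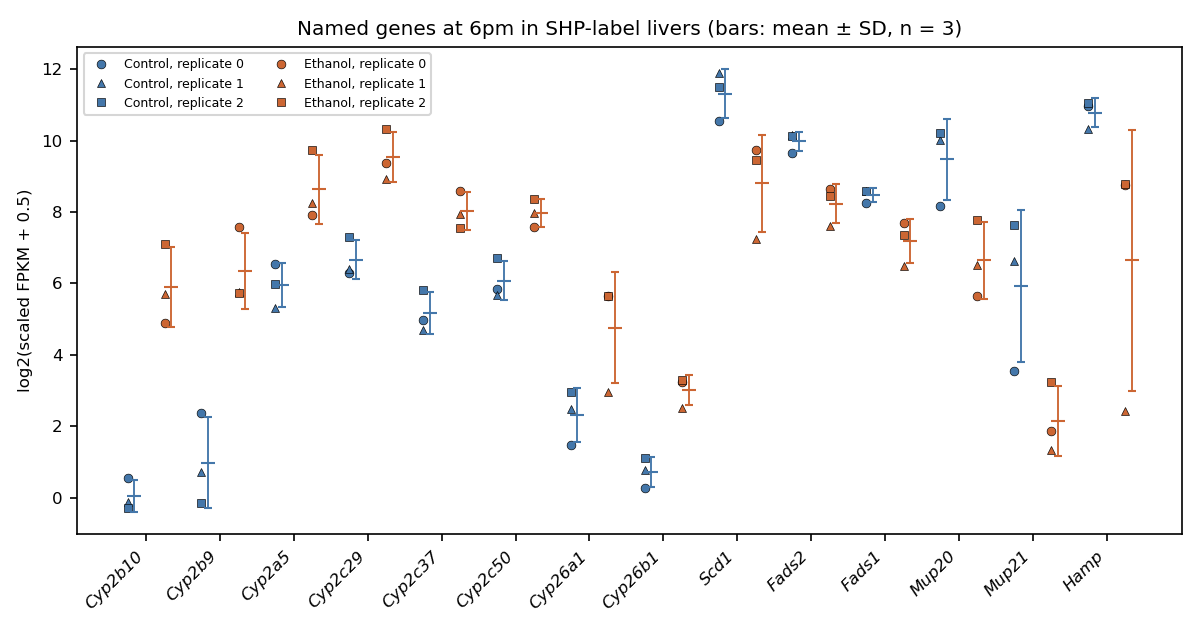
Level of 14 genes, as log2(scaled FPKM + 0.5), in the 3 control livers (blue) and the 3 ethanol livers (orange) of the SHP label at 6pm; symbols mark the replicate and bars the mean and SD of 3. The cytochromes from Cyp2b10 to Cyp2c50 and Cyp26b1 lay higher in every ethanol liver, Scd1, Fads1, Fads2, Mup20 and Mup21 lower, and ethanol replicate 1 (triangle) was lowest for Hamp at 4.87 scaled FPKM.

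Genes that differ between the sexes in mouse liver were counted by the sex in which they are known to be higher. Of 20 male-predominant genes, 7 fell and 0 rose (median -1.42), where 3.75% of all genes fell. Without the 2 livers that stood apart, 5 fell. Leaving out 1 liver gave 2 to 9 falls, 2 without control replicate 1 or 2 and 3 without ethanol replicate 1. The median was -0.61 without control replicate 2. Mup20, the pheromone protein darcin, was at 289, 1046 and 1193 scaled FPKM in the control livers and 49.2, 91.9 and 217 in the ethanol livers (log2 -2.83, SE 0.60, adjusted p = 0.00285). Mup21, of the same urinary protein family, was at 11.1, 98 and 199 scaled FPKM in the control livers and 3.13, 2.04 and 8.98 in the ethanol livers (log2 -3.78, SE 0.94, adjusted p = 0.0114). In both, control replicate 0 was the lowest control, yet above every ethanol liver. Nudt7, a peroxisomal CoA hydrolase, was at 43.9, 88.8 and 122 scaled FPKM in the control livers and 27.5, 26.9 and 25 in the ethanol livers (log2 -1.55, SE 0.39, adjusted p = 0.0133). The selenium-binding protein gene Selenbp2 was at 20.2, 45.7 and 155 scaled FPKM in the control livers and 7.75, 1.68 and 12.7 in the ethanol livers (log2 -3.10, SE 0.91, adjusted p = 0.0326). Hsd3b5, a male steroid dehydrogenase, was at 0.403, 12.9 and 58.9 scaled FPKM in the control livers and 0.838, 0.0822 and 2.2 in the ethanol livers (log2 -2.81, SE 1.13, adjusted p = 0.121). Its control livers overlapped the ethanol livers, and it was not called. The list's mean log2 level was 3.92, 5.58 and 6.76 in the control livers and 3.45, 3.18 and 4.99 in the ethanol livers, so control replicate 0 lay between the ethanol livers. Mup genes may share reads with one another. The test missed the threshold for Mup21 and Selenbp2 without control replicate 1 or 2 or ethanol replicate 1; for Nudt7 without control replicate 1 or 2. limma did not call Selenbp2 (log2 -3.02, adjusted p = 0.131) in the 2 against 2.

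Of 19 female-predominant genes, 5 rose and 0 fell (median 1.84), where 3.33% of all genes rose. In the 2 against 2, 6 rose. Fits without 1 of the livers gave 3 to 7 rises, 3 without control replicate 1 or ethanol replicate 0. The median was 0.84 without ethanol replicate 0. The risers included Sult3a1 and, from genes also on the CAR and PXR list, Cyp2b9, Cyp2b10 and Cyp2a4. Cyp2a4, a steroid hydroxylase, was at 11.5, 0.557 and 0.245 scaled FPKM in the control livers and 31.8, 16.3 and 11.2 in the ethanol livers (log2 3.13, SE 0.80, adjusted p = 0.0134; 4.46, adjusted p = 0.00439, without the 2 livers). Control replicate 0 overlapped the ethanol livers. The sulfotransferase Sult3a1 was at 1.19, 0 and 0.0775 scaled FPKM in the control livers and 1.17, 10.2 and 1.84 in the ethanol livers, with ethanol replicate 1 highest (log2 2.14, SE 0.47, adjusted p = 0.00382). Growth hormone sets many sex differences of the liver; of 12 genes of its axis limma called 0, with 1 at an unadjusted p of 0.05 and 0 called by voom. The call was lost for Sult3a1 without ethanol replicate 1; for Cyp2a4 without control replicate 1 or 2 or ethanol replicate 0.

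Some genes of fatty acid synthesis fell, and no member of the list rose. Without the 2 livers that stood apart, 3 of 21 fatty acid synthesis genes fell. With all 6 livers 4 fell and 0 rose (median -1.04), where 3.75% of all genes fell. The 4 were the desaturases Scd1, Fads1 and Fads2, which add double bonds, and the elongase Elovl5. Scd1, which makes oleate, was at 1505, 3789 and 2916 scaled FPKM in the control livers and 848, 150 and 700 in the ethanol livers. Every ethanol liver was below every control liver, and ethanol replicate 1 was lowest (log2 -2.51, SE 0.52, adjusted p = 0.00265; -2.11, adjusted p = 0.0312, without the 2 livers). Fads2, the delta-6 desaturase of polyunsaturated fatty acids, was at 812, 1138 and 1116 scaled FPKM in the control livers and 401, 194 and 351 in the ethanol livers (log2 -1.74, SE 0.31, adjusted p = 0.00071). Its partner Fads1 was at 306, 388 and 383 scaled FPKM in the control livers and 207, 89.7 and 164 in the ethanol livers (log2 -1.30, SE 0.25, adjusted p = 0.00144). Neither overlapped between the groups, and both were called in all 8 fits. Elovl5 was at 188, 263 and 244 scaled FPKM in the control livers and 115, 85.3 and 101 in the ethanol livers (log2 -1.19, SE 0.33, adjusted p = 0.0214). Calls did not hold for Elovl5 without control replicate 1 or 2 or ethanol replicate 1. The 2 against 2 left Elovl5 (log2 -1.22, adjusted p = 0.104) uncalled.

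Of 31 fatty acid oxidation genes and PPARa targets, 1 fell and 0 rose, where 3.75% of all genes fell and 3.33% rose. Cpt1a, which admits fatty acids to mitochondria, was at 165, 202 and 192 scaled FPKM in the control livers and 87.9, 62.7 and 115 in the ethanol livers, without overlap (log2 -1.11, SE 0.27, adjusted p = 0.0111). The fatty acid hydroxylases Cyp4a10 and Cyp4a14, of the CYP4A family in the series' title, were not called. Cyp4a10 was at 33.1, 18.6 and 26.5 scaled FPKM in the control livers and 251, 99.9 and 56.6 in the ethanol livers (log2 2.13, SE 0.81, adjusted p = 0.099). Cyp4a14 was at 37.5, 25.2 and 13.3 scaled FPKM in the control livers and 469, 66.2 and 88.5 in the ethanol livers (log2 2.56, SE 1.03, adjusted p = 0.118). Every ethanol liver was above every control liver in both, with ethanol replicate 0 far above its group, and the family may share reads. Ppara was at 25.9, 35.7 and 28.6 scaled FPKM in the control livers and 21.1, 8.98 and 25.5 in the ethanol livers (log2 -0.79, SE 0.27, adjusted p = 0.0684). Of 13 lipid droplet genes limma called 0, with 3 at an unadjusted p of 0.05 and 0 called by voom. The lowest adjusted p was that of Fitm2, at 18.7, 18.9 and 18.8 scaled FPKM in the control livers and 11.5, 10.2 and 11.9 in the ethanol livers (log2 -0.72, SE 0.24, adjusted p = 0.0627). When 1 liver was left out, calls were lost for Cpt1a without control replicate 1 or ethanol replicate 1. limma did not call Cpt1a (log2 -0.97, adjusted p = 0.118) in the 2 against 2.

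Sterol genes gave few calls, where 3.33% of all genes rose and 3.75% fell. Of 23 cholesterol synthesis and uptake genes limma called 0 (median -0.42), with 2 at an unadjusted p of 0.05 and 1 called by voom. Of 18 bile acid genes, Cyp39a1, an oxysterol hydroxylase, rose and the uptake carrier Slco1a1 fell. Slco1a1 was at 19.6, 56.3 and 92.1 scaled FPKM in the control livers and 3.63, 0.262 and 19.6 in the ethanol livers (log2 -3.57, SE 0.92, adjusted p = 0.0139). Ethanol replicate 2 equalled the lowest control at 3 digits. Cyp7a1, the rate-limiting enzyme of bile acid synthesis and a gene SHP is known to repress, was at 112, 163 and 151 scaled FPKM in the control livers and 54.2, 29 and 78 in the ethanol livers. All 3 ethanol livers lay below all 3 controls, but the difference of -1.49 (SE 0.50, adjusted p = 0.059) missed the threshold. Cyp8b1, another such target, was at 189, 271 and 369 scaled FPKM in the control livers and 268, 208 and 289 in the ethanol livers and overlapped (log2 -0.08, SE 0.43, adjusted p = 0.936). Of 21 apolipoprotein and lipoprotein genes 4 rose, by 0.62 to 0.72 on the log2 scale, and 1 fell. With 1 liver left out there were 0 to 4 rises, 0 without control replicate 1 and 2 without control replicate 0. The risers were Apoh, Apom, Lcat and Lipc. Pltp, the phospholipid transfer protein, fell, at 67.9, 29.4 and 44.2 scaled FPKM in the control livers and 18.6, 27.6 and 12.6 in the ethanol livers (log2 -1.23, SE 0.32, adjusted p = 0.0161). In the 2 against 2 limma called 0 of the 21. The test missed the threshold for Cyp39a1 and Pltp without control replicate 0 or ethanol replicate 2; for Slco1a1 without control replicate 1 or 2 or ethanol replicate 1; for Apoh without control replicate 0 or 1; for Apom and Lcat without control replicate 1 or ethanol replicate 1; for Lipc without control replicate 0 or 1 or ethanol replicate 0 or 2. Calls absent from the 2 against 2 were those for Slco1a1 (log2 -2.99, adjusted p = 0.112), Apoh (log2 0.48, adjusted p = 0.209), Apom (log2 0.50, adjusted p = 0.203), Lcat (log2 0.49, adjusted p = 0.195), Lipc (log2 0.75, adjusted p = 0.101) and Pltp (log2 -1.21, adjusted p = 0.0735).

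Interferon response genes had the largest share of calls among the 43 lists. Of 29 measured, 21 fell and 0 rose, with a median log2 difference of -1.22, where 3.75% of all genes fell. Without the 2 livers that stood apart, 15 fell (median -1.02), and 14 were called lower in all 8 fits. In 22 of the 29 every ethanol liver was below every control liver, against 9.15% of all genes. Ifit1, an RNA-binding antiviral protein, was at 8.56, 3.68 and 7.39 scaled FPKM in the control livers and 1.38, 0.918 and 1.87 in the ethanol livers (log2 -1.85, SE 0.27, adjusted p = 5.9e-05). Irf7, the transcription factor that amplifies interferon production, was at 38.2, 17.6 and 39.4 scaled FPKM in the control livers and 8.24, 6.28 and 5.03 in the ethanol livers (log2 -2.14, SE 0.33, adjusted p = 0.000117). Ethanol replicate 1, with its high immune cell markers, was below every control for both, like the other ethanol livers. Usp18, which dampens interferon receptors, was at 17.3, 10.5 and 23.8 scaled FPKM in the control livers and 4.24, 4.73 and 3.75 in the ethanol livers (log2 -1.83, SE 0.26, adjusted p = 3.95e-05). Ifi44 was at 2.58, 0.999 and 2.04 scaled FPKM in the control livers and 0.266, 0.151 and 0.215 in the ethanol livers (log2 -1.68, SE 0.20, adjusted p = 1.58e-06). Rtp4 was at 21.9, 11.3 and 20.7 scaled FPKM in the control livers and 5.22, 4.78 and 5.45 in the ethanol livers (log2 -1.65, SE 0.22, adjusted p = 1.76e-05). Control replicate 1 was the lowest control for all 3.

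The promoters of 4 genes that fell are shown because they hold the interferon-stimulated response element, searched as GAAANNGAAA (reverse TTTCNNTTTC) in the 250 bases before each RefSeq gene start. The element was found in 11 of the 22 list members with a promoter in the table and in 3.04% of all 27025 stretches. Matches are in capitals, read 5′ to 3′ along the gene's strand; in Oas1a and Gbp3 a pair of matches overlap:
Ifit1 (chr19:34640745-34640853, plus strand): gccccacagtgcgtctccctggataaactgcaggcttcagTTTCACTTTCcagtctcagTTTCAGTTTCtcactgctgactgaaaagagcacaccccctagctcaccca
Ifit3 (chr19:34583333-34583456, plus strand): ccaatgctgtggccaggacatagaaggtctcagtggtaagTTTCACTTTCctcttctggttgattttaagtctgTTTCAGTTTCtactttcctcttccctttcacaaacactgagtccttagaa
Oas1a (chr5:120907526-120907585, minus strand): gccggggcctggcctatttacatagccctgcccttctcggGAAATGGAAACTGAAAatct
Gbp3 (chr3:142559959-142560043, plus strand): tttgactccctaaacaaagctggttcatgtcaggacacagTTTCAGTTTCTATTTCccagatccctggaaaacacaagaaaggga
Ifit3 was at 13.7, 5.48 and 9.56 scaled FPKM in the control livers and 2.92, 3.25 and 2.65 in the ethanol livers, a log2 difference of -1.47 (adjusted p = 0.000531). Oas1a, which senses double-stranded RNA, was at 6, 1.84 and 3.63 scaled FPKM in the control livers and 0.991, 1.52 and 0.761 in the ethanol livers (log2 -1.35, adjusted p = 0.00146). Gbp3, a guanylate-binding protein, was at 15.2, 4.18 and 8.02 scaled FPKM in the control livers and 1.77, 3.3 and 1.37 in the ethanol livers (log2 -1.76, adjusted p = 0.00421). The Ifit and Oas genes lie in clusters of related genes and may share reads.

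Other immune lists gave few calls, where 3.75% of all genes fell. Of 12 MHC class I genes 1 fell, H2-Q2, at 11.1, 4.86 and 1.09 scaled FPKM in the control livers and 0.0742, 0.438 and 0.0483 in the ethanol livers (log2 -2.80, SE 0.48, adjusted p = 0.000418). It may share reads with its relatives. Tap1, the peptide transporter that interferon induces, was at 15.4, 5.01 and 5.37 scaled FPKM in the control livers and 3.75, 8.1 and 3.41 in the ethanol livers (log2 -0.62, SE 0.32, adjusted p = 0.234). It was not called, and ethanol replicate 1 lay above 2 of the controls. The interferon-induced chemokine Cxcl9 fell, at 45.3, 6.56 and 3.6 scaled FPKM in the control livers and 1.39, 6.15 and 0.952 in the ethanol livers (log2 -2.06, SE 0.65, adjusted p = 0.0475), and control replicate 0 was far the highest. Of 14 Kupffer cell and 10 monocyte and antigen-presenting cell markers limma called 0, with 0 at an unadjusted p of 0.05 and 0 called by voom for the first list and 1 at an unadjusted p of 0.05 and 0 called by voom for the second. Ethanol replicates 0 and 2 had the lowest sums of these markers and ethanol replicate 1 the highest. Their part in the interferon result was not tested. In the 2 against 2, where these marker sums were also lower with ethanol, the log2 differences were -1.95 for Irf7, -1.44 for Ifit1 and -1.86 for Usp18. The call was lost for Cxcl9 without control replicate 0 or 1 or ethanol replicate 0 or 2. The 2 against 2 left Cxcl9 (log2 -1.70, adjusted p = 0.164) uncalled.

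Cell cycle genes gave falls and no rises. Of 30 cell cycle genes measured 10 fell and 0 rose (median -0.90), where 3.75% of all genes fell. In 24 of the 30 every ethanol liver was below every control liver, against 9.15% of all genes. The fallers included Mcm2 to Mcm6, subunits of the replicative helicase, the loading factor Cdc6 and the transcription factor E2f1. Mcm5 was at 16.1, 3.07 and 4.07 scaled FPKM in the control livers and 0.283, 0.452 and 0.336 in the ethanol livers (log2 -2.92, SE 0.56, adjusted p = 0.00126). Mcm6 was at 15.2, 4.72 and 4.5 scaled FPKM in the control livers and 0.713, 0.906 and 0.601 in the ethanol livers (log2 -2.59, SE 0.52, adjusted p = 0.00217). Control replicate 0 was the highest liver for both, and the other controls still lay above all 3 ethanol livers. The neutrophil, Kupffer cell and monocyte marker sums were highest in that liver among the controls too, and highest of all in ethanol replicate 1. Their part in these values was not tested. Mki67, the proliferation marker, was low in every liver, at 1.13, 0.526 and 0.31 scaled FPKM in the control livers and 0.0632, 0.17 and 0.0823 in the ethanol livers (log2 -0.87, SE 0.41, adjusted p = 0.186). In the 2 against 2 the list's median was -0.76 and 1 gene, Mcm5, was called. Calls did not hold for Mcm2 without control replicate 0. limma did not call Mcm2 (log2 -1.50, adjusted p = 0.0805), Mcm6 (log2 -2.14, adjusted p = 0.0562), Cdc6 (log2 -0.77, adjusted p = 0.0741) or E2f1 (log2 -1.10, adjusted p = 0.132) in the 2 against 2. Mcm3 and Mcm4 were not called there either.

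The Mcm5 and Mcm6 promoters are shown because they hold sites of the kind bound by E2F factors, which time replication genes. TTTCGCGC (reverse GCGCGAAA) was found in 3 of the 24 list members with a promoter in the table, Cdk1, Mcm5 and Mcm6, and in 0.255% of the 27025 stretches. A second form, TTTGGCGC (reverse GCGCCAAA), was found in Mcm5 and Mcm6 and in 0.437% of stretches, and in both it overlaps the first. Capitals mark the first form:
Mcm5 (chr8:75109316-75109403, plus strand): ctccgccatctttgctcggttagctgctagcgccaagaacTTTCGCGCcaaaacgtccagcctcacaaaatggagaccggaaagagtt
Mcm6 (chr1:128359764-128359851, minus strand): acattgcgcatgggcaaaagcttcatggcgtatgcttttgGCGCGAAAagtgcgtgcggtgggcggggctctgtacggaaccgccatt
Ighm, the immunoglobulin heavy chain of B cells, was at 9.5, 13.7 and 18.9 scaled FPKM in the control livers and 1.24, 0.723 and 1.16 in the ethanol livers (log2 -3.20, SE 0.69, adjusted p = 0.00368). No liver overlapped, and it was called in all 8 fits. Of 13 lymphocyte markers it was the only one called by limma; the B cell genes Cd79a and Ms4a1 were under 0.3 in all 6 livers. Ighm was lowest in ethanol replicate 1, while the T cell marker Cd3g was highest there, at 3.57 against 1.7, 0.413 and 0.315 in the controls. The lymphocyte list, Ighm included, summed to 24.1, 17.6 and 21.2 in the control livers and 3.12, 18.1 and 3.01 in the ethanol livers.

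**Figure D3:**
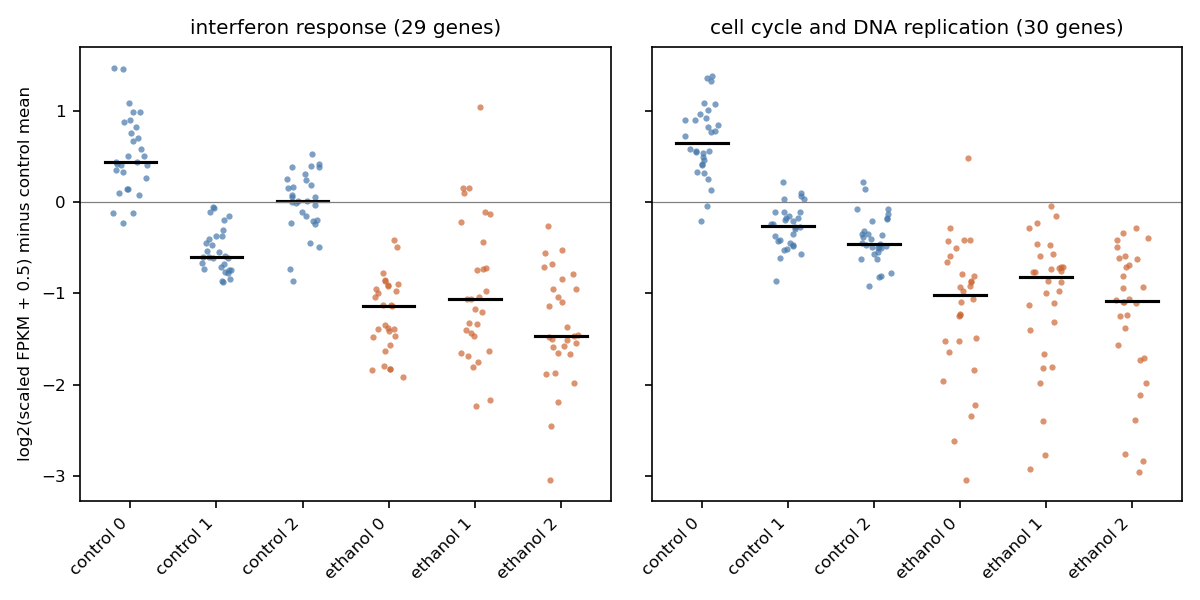
Each dot is 1 gene of the interferon list (left) or the cell cycle list (right) in 1 liver, as log2(scaled FPKM + 0.5) minus that gene's mean over the 3 control livers; black lines are medians, blue is control and orange ethanol. In the 3 ethanol livers, ethanol replicate 1 included, most dots lie below 0, and control replicate 0 is the highest control in both panels.

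Some chaperones of the endoplasmic reticulum rose, and their levels were highest in ethanol replicate 1. Of 21 measured 6 rose and 0 fell (median 1.08), where 3.33% of all genes rose. In 10 of the 21 every ethanol liver was above every control liver, against 9.46% of all genes. In the 2 against 2 limma called 0 (median 0.43). Leaving out 1 liver gave 0 to 14 rises, 0 without control replicate 1 or ethanol replicate 1, 3 without control replicate 2 and 14 without ethanol replicate 0 or 2. Hspa5, the master chaperone BiP, was at 142, 105 and 182 scaled FPKM in the control livers and 255, 1648 and 247 in the ethanol livers (log2 1.75, SE 0.47, adjusted p = 0.0197; 0.86, adjusted p = 0.362, without the 2 livers). Dnajb9, its co-chaperone, was at 26.9, 18.3 and 33.5 scaled FPKM in the control livers and 52, 111 and 53.8 in the ethanol livers (log2 1.39, SE 0.33, adjusted p = 0.00788). Hyou1, another chaperone, was at 14.9, 9.94 and 17.1 scaled FPKM in the control livers and 30.4, 130 and 23.8 in the ethanol livers (log2 1.70, SE 0.49, adjusted p = 0.0312). For all 3 the ethanol replicates 0 and 2 lay close to each other and above the controls, and ethanol replicate 1 far above them. Derl3, which draws misfolded proteins out of the endoplasmic reticulum, was at 0.66, 0.496 and 0.126 scaled FPKM in the control livers and 0.318, 92.2 and 1.24 in the ethanol livers. Ethanol replicate 1 alone was high, and the gene was not called (adjusted p = 0.117). When 1 liver was left out, calls were lost for Hspa5, Dnajb9 and Hyou1 without control replicate 1 or ethanol replicate 1. Calls absent from the 2 against 2 were those for Hspa5 (log2 0.86, adjusted p = 0.362), Dnajb9 (log2 1.08, adjusted p = 0.14) and Hyou1 (log2 1.02, adjusted p = 0.359).

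The promoters of Hspa5 and of 2 list members that were high in ethanol replicate 1 without a call, Creld2 and Derl3, are shown because they hold the ER stress element, searched as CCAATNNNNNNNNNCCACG (reverse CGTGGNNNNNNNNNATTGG). It was found in 9 of the 19 list members with a promoter in the table and in 0.122% of all stretches. Capitals mark the element, which in Creld2 and Derl3 lies on the other strand:
Hspa5 (chr2:34771985-34772083, plus strand): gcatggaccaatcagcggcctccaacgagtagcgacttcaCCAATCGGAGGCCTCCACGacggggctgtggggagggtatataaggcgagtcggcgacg
Creld2 (chr15:88819480-88819578, plus strand): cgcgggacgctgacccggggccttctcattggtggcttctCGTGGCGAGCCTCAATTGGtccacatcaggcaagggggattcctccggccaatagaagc
Derl3 (chr10:75893202-75893300, plus strand): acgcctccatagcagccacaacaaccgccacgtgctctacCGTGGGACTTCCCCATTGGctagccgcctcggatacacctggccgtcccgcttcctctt
Creld2, a chaperone-like secreted protein, was at 23.5, 10.1 and 17 scaled FPKM in the control livers and 32.6, 655 and 22.9 in the ethanol livers (log2 2.28, adjusted p = 0.0652).

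The stress genes downstream of ATF4, the factor of the amino acid and unfolded protein responses, gave 3 rises among 20 (median 0.37), 2 without the 2 livers. With all 6 livers 3.33% of all genes rose. Atf5, a relative that ATF4 induces, was at 200, 125 and 119 scaled FPKM in the control livers and 276, 433 and 359 in the ethanol livers (log2 1.28, SE 0.24, adjusted p = 0.00119). It was called in all 8 fits. Atf4 itself was at 49.3, 39.4 and 51.9 scaled FPKM in the control livers and 72.3, 87.5 and 90.5 in the ethanol livers (log2 0.83, SE 0.21, adjusted p = 0.0149). Neither gene overlapped between the groups. Ddit3, the stress factor CHOP, was at 4.63, 4.17 and 4.18 scaled FPKM in the control livers and 9.21, 21.2 and 8.31 in the ethanol livers (log2 1.35, SE 0.48, adjusted p = 0.0764) and missed the threshold. The test missed the threshold for Atf4 without control replicate 1 or ethanol replicate 1. The 2 against 2 left Atf4 (log2 0.83, adjusted p = 0.0955) uncalled.

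Among 22 genes of NRF2 and glutathione, 3 rose (median 0.27), where 3.33% of all genes rose. Without the 2 livers, 5 rose. Fits without 1 of the livers gave 0 to 6 rises, 0 without control replicate 1 or ethanol replicate 2, 1 without control replicate 2, 5 without ethanol replicate 1 and 6 without control replicate 0. In the fit without ethanol replicate 2, 1 member was called lower. The glutathione transferase Gsta2 was at 2.5, 2.56 and 2.22 scaled FPKM in the control livers and 8.17, 5.71 and 22.1 in the ethanol livers (log2 1.87, SE 0.49, adjusted p = 0.017). The epoxide hydrolase Ephx1 was at 168, 106 and 100 scaled FPKM in the control livers and 269, 218 and 395 in the ethanol livers (log2 1.23, SE 0.33, adjusted p = 0.0191). Ethanol replicate 2 was highest for both. Nqo1, the quinone reductase most used as an NRF2 readout, was at 9.92, 5.16 and 3.91 scaled FPKM in the control livers and 9.38, 14.9 and 13.7 in the ethanol livers (log2 1.02, SE 0.33, adjusted p = 0.0533). It overlapped between replicate 0 of each group and was not called. The metallothionein Mt1, which binds zinc, was at 602, 50.6 and 110 scaled FPKM in the control livers and 177, 3321 and 1664 in the ethanol livers (log2 2.72, SE 1.10, adjusted p = 0.12). Its neighbour Mt2 was at 445, 26.3 and 57 scaled FPKM in the control livers and 145, 1419 and 1288 in the ethanol livers (log2 2.87, SE 1.29, adjusted p = 0.166). Ethanol replicate 0 was below control replicate 0 in both, and neither was called. Hmox1, haem oxygenase, was at 28.1, 11 and 12.2 scaled FPKM in the control livers and 24.4, 46 and 93.2 in the ethanol livers (log2 1.56, SE 0.51, adjusted p = 0.056). Slc30a10, a manganese exporter, was at 2.25, 5.86 and 7.77 scaled FPKM in the control livers and 10.8, 10.9 and 12.2 in the ethanol livers, with close values in the 3 ethanol livers (log2 1.17, SE 0.34, adjusted p = 0.0312). The call was lost for Gsta2 without control replicate 1 or ethanol replicate 2; for Ephx1 without control replicate 1 or 2 or ethanol replicate 2; for Slc30a10 without control replicate 0 or 1 or ethanol replicate 1 or 2. limma did not call Slc30a10 (log2 0.73, adjusted p = 0.353) in the 2 against 2.

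Acute phase genes ranged widely among the livers of each group. Saa1, serum amyloid A, was at 678, 180 and 154 scaled FPKM in the control livers and 38.8, 15785 and 65.8 in the ethanol livers (log2 0.37, SE 1.96, adjusted p = 0.932). Saa2 was at 568, 151 and 125 scaled FPKM in the control livers and 36.8, 19301 and 71.6 in the ethanol livers (log2 0.75, SE 2.07, adjusted p = 0.866). Ethanol replicate 1 was far above every other liver, control replicate 0 came next, and ethanol replicates 0 and 2 were the lowest of all 6. Neither was called, and in the 2 against 2 the log2 differences were -1.71 for Saa1 and -1.41 for Saa2. Lcn2, an iron-withholding lipocalin, was at 218, 12.7 and 7.95 scaled FPKM in the control livers and 6.3, 2316 and 16.4 in the ethanol livers. Orm2, an orosomucoid, was at 169, 15.8 and 13.7 scaled FPKM in the control livers and 9.31, 2139 and 16.1 in the ethanol livers. The neutrophil gene S100a8 was at 17.1, 1.13 and 1.08 scaled FPKM in the control livers and 3.07, 109 and 3.53 in the ethanol livers. Ethanol replicate 1 and then control replicate 0 were again the highest. The neutrophil and Kupffer cell markers had their highest sums in the same 2 livers, and their part in these values was not tested. Saa1 and Saa2 are closely alike and may share reads.

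Of 28 acute phase genes 4 rose and 1 fell (median 0.96), where 3.33% of all genes rose and 3.75% fell. Without the 2 livers 1 rose (median 0.3). With 1 liver left out there were 1 to 5 rises, 1 without control replicate 1 or 2 or ethanol replicate 1 and 2 without control replicate 0. C3, the central complement protein, was at 1366, 1018 and 1556 scaled FPKM in the control livers and 2978, 4917 and 2546 in the ethanol livers (log2 1.37, SE 0.26, adjusted p = 0.00125). It was the one riser of this list called in all 8 fits. Lbp, which presents endotoxin to its receptor, was at 20, 11.9 and 11.9 scaled FPKM in the control livers and 35.7, 90.7 and 29.6 in the ethanol livers (log2 1.66, SE 0.44, adjusted p = 0.0186). Hamp, the iron hormone hepcidin, was at 1994, 1281 and 2144 scaled FPKM in the control livers and 429, 4.87 and 440 in the ethanol livers. Ethanol replicate 1 was far the lowest, and replicates 0 and 2 lay close together below the controls (log2 -4.13, SE 0.97, adjusted p = 0.00729; -1.93, adjusted p = 0.234, without the 2 livers). Of 25 coagulation and complement genes 7 rose and 1 fell (median 0.24; -0.03 with library totals alone), against 1 and 1 without the 2 livers. Leaving out 1 liver gave 1 to 10 rises, 1 without control replicate 0 and 2 without control replicate 1 or ethanol replicate 1. Serpinc1, antithrombin, was at 677, 850 and 1167 scaled FPKM in the control livers and 1366, 1413 and 1247 in the ethanol livers (log2 0.61, SE 0.14, adjusted p = 0.00534). The terminal complement gene C6, which is also on the male-predominant list, was at 24.3, 43.4 and 55.1 scaled FPKM in the control livers and 6.57, 18.5 and 12.3 in the ethanol livers (log2 -1.71, SE 0.39, adjusted p = 0.00551). Calls did not hold for Lbp without control replicate 1 or 2 or ethanol replicate 1; for Hamp without ethanol replicate 1; for Serpinc1 without control replicate 0. Calls absent from the 2 against 2 were those for Lbp (log2 1.41, adjusted p = 0.143), Hamp (log2 -1.93, adjusted p = 0.234) and Serpinc1 (log2 0.39, adjusted p = 0.184).

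**Figure D4:**
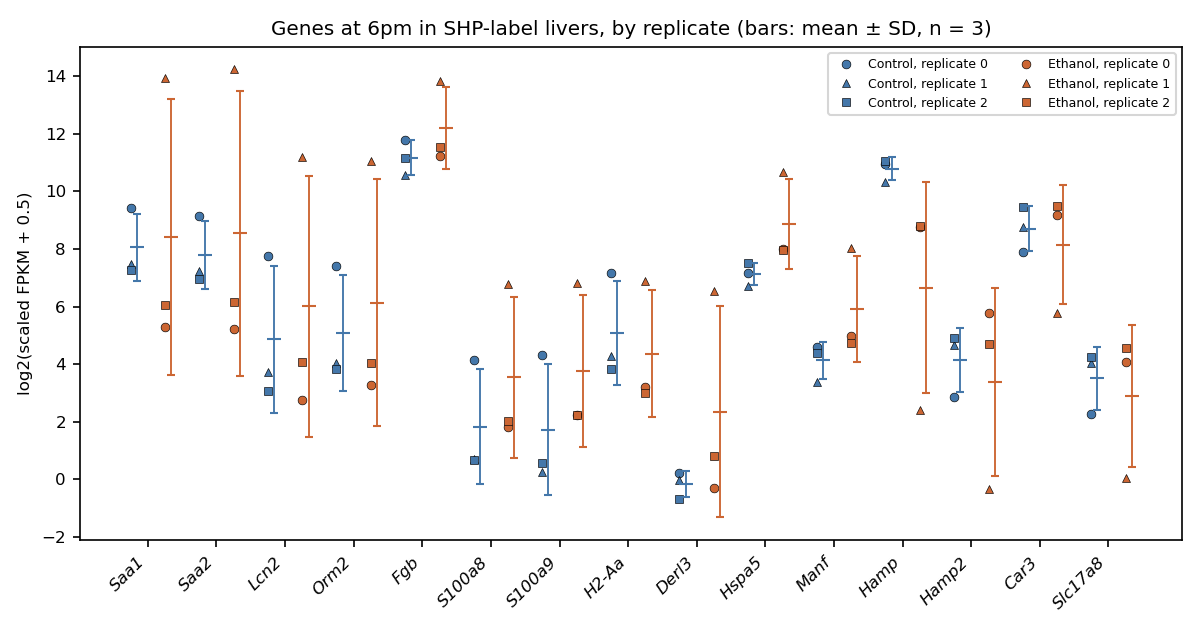
Level of 15 genes, as log2(scaled FPKM + 0.5), in the 3 control livers (blue) and 3 ethanol livers (orange) of the SHP label at 6pm; symbols mark the replicate and bars the mean and SD of 3. Ethanol replicate 1 (orange triangle) and control replicate 0 (blue circle) are high from Saa1 to H2-Aa; ethanol replicate 1 alone is high for Derl3, Hspa5 and Manf and low for Hamp, Hamp2, Car3 and Slc17a8.

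The genes in which ethanol replicate 1 fell furthest below its group, chosen by that gap and given without a test, were Hamp, its relative Hamp2 (55, 0.302 and 25.6 in the ethanol livers), the glutamate transporter Slc17a8 (16.5, 0.544 and 23.1), the mitochondrial valine tRNA mt-Tv and the carbonic anhydrase Car3 (586, 54.4 and 719). Control replicate 0 was also the lowest control for Hamp2, Slc17a8 and Car3. Genes in which ethanol replicate 0 was furthest above its group included Cyp2c69 (48, 4.73 and 1.6), Cyp2c40 (22.5, 3.04 and 1.15), Cyp4a14 and Cyp2b9. That liver was furthest below in Mt1, Mt2, Cxcl1 (1.56, 35 and 6.45) and the cell cycle inhibitor Cdkn1a (2.55, 11.6 and 15). Ethanol replicate 2 was furthest above in Mup7 (17.6, 9.44 and 254), Mup17 (4.43, 5.69 and 45), the pseudogene Serpina4-ps1 (5.17, 1.79 and 41.9), the immediate early gene Egr1 (3.7, 2.78 and 32.4) and Cml5. It was furthest below in Clic3 (9.16, 2.54 and 0.0683), Ostb, a bile acid exporter subunit (3.04, 9.05 and 0.425), and H19, an imprinted RNA (2.74, 6.11 and 0.35), with its embedded microRNA Mir675. Mup7 and Mup17 were likewise highest in 1 control liver, replicate 2. Pancreatic acinar markers were also highest in ethanol replicate 2, where the list summed to 47.7 scaled FPKM against 8.26 to 16.2 in the other 5 livers; their part in other results was not tested.

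Of 21 clock genes 1 rose and 1 fell, where 3.33% of all genes rose and 3.75% fell. Arntl, which encodes the clock activator BMAL1, was at 0.703, 0.805 and 1.09 scaled FPKM in the control livers and 2.06, 4.84 and 4.32 in the ethanol livers, without overlap (log2 1.57, SE 0.23, adjusted p = 5.9e-05). It was called in all 8 fits. Dbp, a clock output factor that follows BMAL1, was at 28.2, 23.5 and 17.6 scaled FPKM in the control livers and 21, 3.2 and 8.59 in the ethanol livers (log2 -1.37, SE 0.43, adjusted p = 0.0461; -0.58, adjusted p = 0.595, without the 2 livers). It was lowest in ethanol replicate 1. Nr1d1, the repressor REV-ERBa of the series' title, was at 6.89, 6.92 and 3.72 scaled FPKM in the control livers and 7.11, 2.45 and 4.22 in the ethanol livers and overlapped (log2 -0.38, SE 0.46, adjusted p = 0.665). Per1 was at 5.27, 8.31 and 6.41 scaled FPKM in the control livers and 11.4, 3.08 and 10.6 in the ethanol livers (log2 0.14, SE 0.60, adjusted p = 0.915). Of 13 genes of ethanol and acetate metabolism limma called 0, with 1 at an unadjusted p of 0.05 and 0 called by voom. Adh1, the main alcohol dehydrogenase, was at 904, 947 and 1191 scaled FPKM in the control livers and 1490, 1270 and 1193 in the ethanol livers (log2 0.38, SE 0.20, adjusted p = 0.258). Cyp2e1 was at 2089, 2029 and 3623 scaled FPKM in the control livers and 3313, 2834 and 3303 in the ethanol livers (log2 0.34, SE 0.26, adjusted p = 0.455). Both overlapped, with Adh1 highest in ethanol replicate 0 and Cyp2e1 in control replicate 2. Acss2, which activates acetate, was at 44.1, 44.9 and 54 scaled FPKM in the control livers and 28, 11.6 and 21.1 in the ethanol livers (log2 -1.29, SE 0.47, adjusted p = 0.0817). When 1 liver was left out, calls were lost for Dbp without control replicate 0 or 1 or ethanol replicate 1 or 2. The 2 against 2 left Dbp (log2 -0.58, adjusted p = 0.595) uncalled.

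Glucose and one-carbon genes gave few calls, where 3.33% of all genes rose and 3.75% fell. Of 21 glucose genes 0 rose and 2 fell, but 2 rose and 0 fell without control replicate 2, and of 17 methionine and choline genes 1 rose and 1 fell. Pfkfb3 and Pfkfb1, which set the level of a glycolysis activator, fell. Pfkfb3 was at 3.42, 5.58 and 7.79 scaled FPKM in the control livers and 2.44, 1.68 and 2.58 in the ethanol livers (log2 -1.11, SE 0.27, adjusted p = 0.00979). Mtr, methionine synthase, was at 1.84, 1.91 and 1.47 scaled FPKM in the control livers and 0.674, 0.628 and 0.787 in the ethanol livers (log2 -0.90, SE 0.14, adjusted p = 8.82e-05). The spread was narrow in both groups, and it was called in all 8 fits. Cbs, which starts the path from homocysteine to cysteine, was at 43.4, 68.2 and 70.1 scaled FPKM in the control livers and 73.6, 122 and 74.7 in the ethanol livers (log2 0.56, SE 0.17, adjusted p = 0.0442; 0.10, adjusted p = 0.836, without the 2 livers). Cyb5, the electron donor to cytochromes P450, was at 289, 261 and 371 scaled FPKM in the control livers and 434, 489 and 610 in the ethanol livers (log2 0.73, SE 0.15, adjusted p = 0.00236). The other lists with higher genes had 0 lower, where 3.33% of all genes rose. Their counts were 2 of 13 haem and P450 reduction genes, 2 of 17 pericentral genes, 2 of 17 nuclear receptors, 1 of 30 proteasome subunits, 1 of 15 p53 targets, 1 of 12 sinusoidal endothelial and 1 of 3 adipocyte markers. Each of these counts was at its lowest without control replicate 1. limma called 0 of 16 periportal, 16 heat shock, 17 immediate early, 20 matrix and stellate, 7 cholangiocyte, 5 erythroid and 9 neutrophil genes. At an unadjusted p of 0.05 these lists had 0, 1, 2, 4, 1, 0 and 1, in that order, and voom also called 0 in each. With any 1 of the 6 livers left out at most 1 gene of each was called. The endothelial riser was Lyve1, a hyaluronan receptor, at 7.94, 9.88 and 8.37 scaled FPKM in the control livers and 17.1, 19.3 and 25 in the ethanol livers (log2 1.17, SE 0.37, adjusted p = 0.0482). The adipocyte riser was Fabp4, at 26.8, 17 and 24.1 scaled FPKM in the control livers and 31.3, 133 and 36.7 in the ethanol livers (log2 1.25, SE 0.35, adjusted p = 0.0246). The test missed the threshold for Pfkfb3 without control replicate 2 or ethanol replicate 1; for Pfkfb1 without control replicate 1 or 2 or ethanol replicate 0; for Cbs without control replicate 0 or 1 or ethanol replicate 1; for Lyve1 without control replicate 0, 1 or 2 or ethanol replicate 1 or 2; for Fabp4 without control replicate 1 or ethanol replicate 1. limma did not call Cbs (log2 0.10, adjusted p = 0.836), Lyve1 (log2 1.14, adjusted p = 0.21) or Fabp4 (log2 0.73, adjusted p = 0.282) in the 2 against 2.

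The 6pm ethanol effect was then set against that in the 6 wild-type livers of the same hour, by the difference of the 2 effects in the same fit, on the log2 scale, SHP label minus wild type. It was called for 412 genes (2.99%), 193 with a more positive effect under the SHP label (1.40%) and 219 with a more negative one (1.59%). With library totals in place of the scale factors, 64 were more positive and 2056 more negative. The median difference over all genes then moved from -0.006 to -0.305, so these directions too are relative to the scaled values. Cidec, a lipid droplet fusion protein, was at 2.52, 2.45 and 1.1 scaled FPKM in wild-type control and 51.5, 31 and 12.7 in wild-type ethanol livers. Under the SHP label it was at 14.8, 5.04 and 2.82 with control and 0.648, 3.34 and 2.16 with ethanol. Every wild-type ethanol liver was above its controls, whereas the SHP-label ethanol livers overlapped theirs from below; the effects differed by -5.05 (SE 1.23, adjusted p = 0.0198). Cdkn1a, the cell cycle inhibitor p21, went from 1.42, 0.968 and 0.566 scaled FPKM in the wild-type controls to 67.7, 54.3 and 25.3 with ethanol. Its SHP-label livers were at 15.2, 4.7 and 6.03 with control and 2.55, 11.6 and 15 with ethanol, a difference of effects of -4.95 (SE 1.04, adjusted p = 0.00827). Acot2, a mitochondrial acyl-CoA thioesterase, went from 0.698, 1.2 and 0.518 scaled FPKM in the wild-type controls to 20.4, 16.7 and 18.5 with ethanol. Its SHP-label livers were at 3.45, 2.31 and 1.42 with control and 2.22, 1.38 and 5.1 with ethanol, a difference of effects of -3.75 (SE 0.78, adjusted p = 0.00824). For both of these the SHP-label livers of either treatment lay between the wild-type controls and the wild-type ethanol livers.

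The glutathione transferase Gstm3 went from 16.7, 13.4 and 14.7 scaled FPKM in the wild-type controls to 317, 154 and 374 with ethanol. Its SHP-label livers were at 125, 81.3 and 35 with control and 63.4, 80.5 and 214 with ethanol, a difference of effects of -3.57 (SE 0.77, adjusted p = 0.00969). Cyp2a22 went from 0.326, 0.716 and 0.645 scaled FPKM in the wild-type controls to 33.5, 26 and 64.3 with ethanol, above the 5.15, 1.33 and 6.8 of the SHP-label ethanol livers. Its effects differed by -2.95 (SE 0.66, adjusted p = 0.0124). In the other direction, Cib3, a calcium-binding protein, went from 21, 40.1 and 28.8 scaled FPKM in the wild-type controls to 1.08, 1.03 and 0.791 with ethanol. Its SHP-label livers were all low, at 0.546, 2.73 and 1.7 with control and 0.766, 0.102 and 0.428 with ethanol, a difference of effects of 3.20 (SE 0.75, adjusted p = 0.0157). The ribonucleases Ang and Rnase4, neighbours that share a promoter region, were lower in every wild-type ethanol than control liver. Ang went from 408, 202 and 379 to 71.3, 64.6 and 69.8 scaled FPKM and Rnase4 from 939, 696 and 1199 to 218, 189 and 174. Under the SHP label the groups overlapped in both, and the effects differed by 2.57 (SE 0.53, adjusted p = 0.00806) and 2.20 (SE 0.45, adjusted p = 0.00815). Socs3, an inhibitor of cytokine signalling, and Cyp2c70, which makes muricholic acids in mice, differed by 2.53 (SE 0.73, adjusted p = 0.0493) and 2.74 (SE 0.65, adjusted p = 0.018). Socs3 was highest in ethanol replicate 1 among the SHP-label ethanol livers, at 3.65, 16.9 and 3.32. Without control replicate 0 and ethanol replicate 1 of the SHP label, 3 of these 10 differences, those of Cdkn1a (-4.75, adjusted p = 0.042), Ang (2.30, adjusted p = 0.0274) and Rnase4 (1.96, adjusted p = 0.042), were called. Cidec was then at -4.82, adjusted p = 0.075 and Acot2 at -3.15, adjusted p = 0.0688.

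The shares over all genes, 1.40% more positive and 1.59% more negative, stand beside the list counts that follow. By list, 12 of 25 coagulation and complement genes had a more positive ethanol effect under the SHP label and 0 a more negative one, and likewise 3 of 28 acute phase genes. So had 2 of 21 ER chaperones. The effect was more negative for 2 of 13 lipid droplet, 2 of 22 NRF2 and glutathione, 2 of 31 fatty acid oxidation and 2 of 21 clock genes. For lipid droplet genes the count was 1 without the 2 SHP-label livers that stood apart. There it was 0 for fatty acid oxidation genes, and for NRF2 and glutathione genes 0 more negative and 1 more positive. For ER chaperones the count was 0 there and 0 to 12 with 1 of the 12 livers left out. It was 0 without SHP-label control replicate 1, SHP-label ethanol replicate 1, wild-type control replicate 0 or wild-type ethanol replicate 0 or 2. It was 12 without SHP-label ethanol replicate 2. For the coagulation and complement list the count was 0 without the 2 SHP-label livers that stood apart and 2 to 13 with 1 of the 12 livers left out, 2 without SHP-label ethanol replicate 1; 4 without SHP-label control replicate 1; 7 without wild-type control replicate 0. For the acute phase proteins list the count was 0 without the 2 SHP-label livers that stood apart and 0 to 5 with 1 of the 12 livers left out, 0 without SHP-label control replicate 1, SHP-label ethanol replicate 1 or wild-type control replicate 0; 1 without wild-type ethanol replicate 0 or wild-type ethanol replicate 1; 5 without wild-type control replicate 1. For C3 the difference was 1.44 (SE 0.37, adjusted p = 0.0268), for the fibrinolysis gene Plg 1.04 (SE 0.25, adjusted p = 0.018) and for Serpinc1 0.73 (SE 0.20, adjusted p = 0.0347). Leaving out those 2 livers, the difference was called for 121 genes in all, of which 102 were among the 412. Of the 29 interferon genes 1, Ifi44, differed, by -1.01 (SE 0.28, adjusted p = 0.0369). Of 22 CAR and PXR targets and 30 cell cycle genes limma called 0 for this difference (5 and 5 at an unadjusted p of 0.05), which does not show that the effects were alike: Cyp2b10 differed by -2.73 (SE 1.11, adjusted p = 0.148) and Mcm5 by -1.57 (SE 0.79, adjusted p = 0.245).

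**Figure D5:**
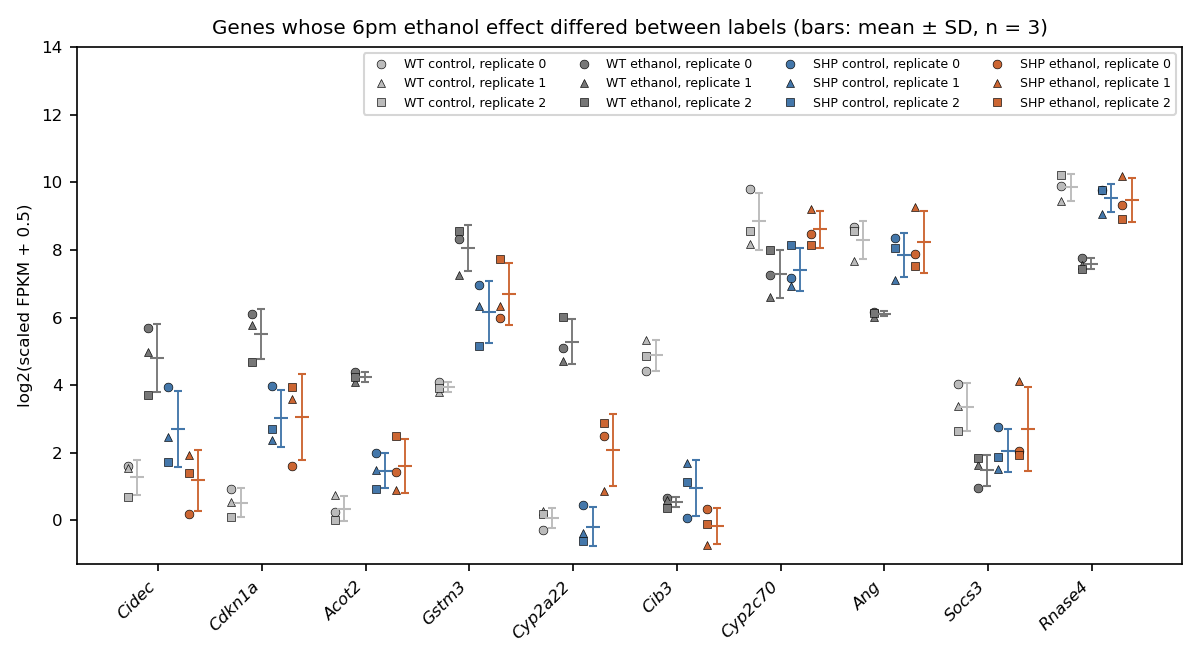
Level of 10 genes, as log2(scaled FPKM + 0.5), in the 12 livers of 6pm, ordered within each gene as wild-type control (light grey), wild-type ethanol (dark grey), SHP-label control (blue) and SHP-label ethanol (orange); symbols mark the replicate and bars the mean and SD of 3. For Cdkn1a and Acot2 the wild-type groups are far apart and the SHP-label groups lie between them; for Ang and Rnase4 the wild-type ethanol livers alone are low.

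Mice of every time were gavaged at 9am, so hour of day and time since gavage cannot be told apart in the contrast of times. Against the mean ethanol effect at 12am, 6am and 12pm in the SHP-label livers, the 6pm effect differed in 46 genes (0.334%), 24 more positive (0.174%) and 22 more negative (0.160%). Arntl led the first group: it rose by 1.57 on the log2 scale at 6pm against a mean of -0.69 at the other times, a difference of 2.27 (SE 0.27, adjusted p = 5.87e-06). Ddc, aromatic amino acid decarboxylase, was at 1.92, 3.18 and 3.95 scaled FPKM in the control livers and 7.91, 7.87 and 9.44 in the ethanol livers at 6pm, and its effect differed by 1.56 (SE 0.27, adjusted p = 0.00466). Dtx4, a ubiquitin ligase, was at 1.18, 0.983 and 0.702 scaled FPKM in the control livers and 1.68, 2.16 and 2.31 in the ethanol livers, and its effect differed by 1.43 (SE 0.19, adjusted p = 5.39e-05). Slc30a10 and the receptor kinase Grk5 differed by 1.80 and 1.53 (adjusted p = 0.0297 and 0.0119). Among the more negative, Usp18 fell by 1.83 at 6pm against a mean change of -0.30 at the other times, a difference of -1.53 (SE 0.30, adjusted p = 0.0133). Ifit1 and Ifi44 differed by -1.50 (SE 0.31, adjusted p = 0.0215) and -1.03 (SE 0.23, adjusted p = 0.0297). These were the 3 interferon genes of 29 called in this contrast. Gpcpd1, a glycerophosphocholine phosphodiesterase, was at 16, 19.5 and 32.7 scaled FPKM in the control livers and 5.73, 7.13 and 14 in the ethanol livers, and its effect differed by -2.61 (SE 0.57, adjusted p = 0.0297). The clock repressor gene Ciart, listed as Gm129, differed by -2.06 (SE 0.44, adjusted p = 0.0249), the interleukin 6 receptor Il6ra by -1.53 (SE 0.34, adjusted p = 0.0377) and the lymphoid factor Tox by -1.32 (SE 0.31, adjusted p = 0.0472). In the 2 against 2 at 6pm, 6 genes were called in this contrast, of which 3 were among the 46; Arntl (1.98, adjusted p = 0.00133) and Dtx4 (1.51, adjusted p = 0.00124) were the 2 of the 10 with the largest differences that kept the call.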

How the data were processed

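Liver RNA of 48 mice was profiled, per the labels' protocols, with an unstranded TruSeq v2 kit with poly(A) selection, read from 1 end over 50 cycles. Per the submitters' processing notes Novoalign and the GRCm38 build were used. How reads of several genes were assigned, and by which gene models, was not given; values of antisense partners and of gene families are therefore uncertain. The authors deposited FPKM for 15041 Ensembl genes, per the file headers. No column of another series was present.

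Whole reads were recovered from the FPKM steps for 15041 genes (100.00%, relative tolerance 1e-11) and served for depth and for trimmed-mean scale factors (30% of fold changes and 5% of levels trimmed; 0.807 to 1.296 over 48 libraries, 0.874 to 1.296 in the 6). The deposited values were FPKM, and the planned count tests were not run. A fit by voom on the recovered reads was added as an alternative. limma 3.58.1 (R 4.3.3) was fitted on log2(scaled FPKM + 0.5) with a mean-variance trend and 16 group means over 48 libraries, so groups share 1 estimate of spread. Genes with at least 0.5 FPKM in 3 libraries were tested (13765; 1276 removed), and p-values were Benjamini-Hochberg adjusted at 0.05. Fold changes on this scale understate changes of low genes. Errors after log2 values are standard errors.

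The following contrasts were made: ethanol against control, its difference from wild type at 6pm, and its difference from the mean of the other 3 times; they share libraries. The 43 lists (744 genes, 725 found, 707 tested; counts per list are of tested members) and the named genes were chosen with earlier results of these data known. Named genes were the 12 largest called rises and falls with a mean of at least 1 scaled FPKM and no overlap, the 5 widest gaps above and below per ethanol liver (at least 5 scaled FPKM in 1 of 6), the 5 largest differences per direction, the 4 list members of lowest adjusted p, and set genes such as Nr0b2 and Cyp2e1; other list members named were chosen after their values were seen. Some genes that the rule picks are not reported here. Nothing says more of the replicates than separate mice in groups of 3. In the main fit the p-values rest on the spread within groups, estimated over all 48 libraries. They do not measure the spread of these 6 livers alone. The scripts were tested on simulated data. Alternatives covered pseudocounts, filters, scaling, library weights (whose estimate stopped short of convergence), subsets of libraries, the replicate block, voom and leaving out livers. Positions are GENCODE M21, promoters RefSeq GRCm38.p6. Figures used Python 3.11.15 and matplotlib 3.10.9.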

Additional observations from a re-analysis of the deposited data

Results flagged for a closer look

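The 6pm ethanol effect under the SHP label differed from that in wild type, by the test of the difference itself in limma (adjusted p under 0.05), for 21 of the 222 named genes. Effects were more negative under the SHP label for Cyp2a22 -2.95, Cdkn1a -4.95, Cidec -5.05, Acot2 -3.75, Gstm3 -3.57, Tox -1.71, Arntl -1.14, Dtx4 -0.89, Cpt1a -1.40, Plin4 -2.90, Ifi44 -1.01 (log2 difference of effects). They were more positive for Cib3 3.20, Cyp2c70 2.74, Ang 2.57, Socs3 2.53, Rnase4 2.20, C3 1.44, Apom 1.09, Fbp1 1.07, Serpinc1 0.73, Plg 1.04. The adjusted p ran from 0.00573 to 0.0493.

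The SHP-label effect at 6pm differed from the mean of the other times for 12 named genes: Gpcpd1 -2.61, Usp18 -1.53, Il6ra -1.53, Ifit1 -1.50, Tox -1.32, Ifi44 -1.03, Gm129 -2.06 were more negative and Arntl 2.27, Slc30a10 1.80, Ddc 1.56, Grk5 1.53, Dtx4 1.43 more positive, with adjusted p from 5.87e-06 to 0.0472. The check for single outlying samples needs groups of 4 or more and was not applied to these groups of 3.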

How the results depend on the processing

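The ethanol calls (974) stayed within 1.5-fold under both pseudocounts, both filters, median-ratio factors, library weights and voom (863 to 1293). They were 2184 with library totals alone, 0 from the 6 libraries alone (1467 at an unadjusted p of 0.05), 339 from the 24 SHP-label libraries, 556 with the replicate block, 308 without the 2 livers that stood apart, and 385 to 1198 when 1 of the 6 livers was left out, lowest without control replicate 1 (385) and without ethanol replicate 1 (589). Like totals did not mean the same genes. Of the 974, 727 were also called with library weights and 366 to 786 with 1 of the 6 livers left out. The difference between genotype labels (412) gave 2120 calls with library totals alone, 1148 with library weights, 109 with the replicate block, 121 without the 2 livers, and 129 to 1099 leaving out 1 of 12, for instance 129 without SHP-label control replicate 1, 171 without ethanol replicate 1 and 1099 without ethanol replicate 2, and 179 without wild-type ethanol replicate 2. The difference between times (46) gave 24 with library totals alone, 4 from the SHP-label libraries, 540 with library weights, 10 with the replicate block, 6 without the 2 livers and 13 to 60 leaving out 1, lowest without control replicate 2. Nr0b2 ran from -0.71 to 0.17 on the log2 scale when 1 liver was left out, with no call. The cause of these moves was not tested. Deviations of same-numbered livers of the 2 groups correlated at -0.414 for replicate 0, -0.567 for replicate 1 and 0.447 for replicate 2. With so few livers and mixed signs, these values cannot decide whether the numbers mark pairs. The numbers were not taken as pairs, and why the block gave fewer calls was not tested. Over the named genes and all alternatives, 3669 values kept their call or stayed uncalled within 1 standard error, 418 lost the call, 85 gained one and 207 moved further without a call. Among the uncalled, 52 and 45 of the first and last kind turned sign; 0 called values did. The 2 planned count tests were not run.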

Other observations

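Genes outside the lists also appear among the 152 called in all 8 fits; they were chosen after their values were seen, and each is given with its log2 difference from the 6 livers and from the 2 against 2. Drug conjugation and hormone handling were among the rises: Ugt1a1 (0.86; 0.97), Ugt1a9 (0.84; 0.97), Mgst3 (1.23; 1.65), Ces1c (0.88; 0.91), Cyp2d26 (0.67; 0.70), Hsd11b1 (1.16; 1.04) and Prlr (1.18; 1.44). Ugt1a1 and Ugt1a9, which attach glucuronic acid to bilirubin and drugs, share their last exons with the other Ugt1a transcripts, so the further Ugt1a symbols called are not separate evidence. Agt, the precursor of angiotensin (1.56; 1.15), and the phospholipase Pla2g12a (1.83; 1.98) rose as well.

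Antiviral genes outside the interferon list fell with it: Dhx58 (-1.26; -1.34), Ddx60 (-1.29; -1.23), Oas3 (-1.15; -0.96), Xaf1 (-1.42; -1.39), Cmpk2 (-1.02; -0.83), Parp12 (-0.95; -0.88) and Adar (-0.56; -0.45). They sense or edit viral RNA or are induced by interferon. The bile acid uptake gene Slc10a2 (-1.53; -1.71) and the DNA repair and replication genes Rpa1 (-1.02; -0.93) and Fancl (-0.71; -0.71) were lower too.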
